A study of Sus scrofa with 24 samples.

Results

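Lipocalins are small, mostly secreted proteins that fold into a cup and carry lipophilic ligands such as retinol, steroids and fatty acids. The members described here are SAL1, LCN2, RBP4, PTGDS and APOD, chosen by gene symbol on the platform. Probes named for 4 of these 5 genes were found, 6 of 43749 probes and 4 of 11905 named genes, with 1 probe each for SAL1, LCN2 and RBP4 and 3 for APOD. No probe was named for PTGDS, so it has no value here. SAL1 was included because of its ratio in the male IS21SE comparison, so that ratio is given as a description and was not tested.

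The study compared total RNA of embryos at day 30 of gestation from primiparous sows, that is sows in their first parity, under different suckling and breeding schemes. In intermittent suckling the litter is kept from the sow for part of the day, which can bring on oestrus during lactation. The treated sows followed 1 of 2 such schemes, named IS21FE and IS21SE in the labels, where the letters are not spelled out. Controls were pools of the same sex from control sows. The 4 groups were female IS21FE, female IS21SE, male IS21FE and male IS21SE, each with 3 replicates, and each replicate set a treated pool against a control pool on 2 arrays with exchanged dyes. A pool held 3 embryos of a sow, so a ratio shows nothing of the spread between embryos. Per the labels there were 6 control sows and 3 sows for each scheme, and 24 pools. The same sows gave the female and the male pools of a scheme.

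SAL1 encodes the salivary lipocalin of the pig, which is known from the boar's submaxillary gland as a carrier of the androstene pheromones. RBP4 carries retinol from the liver through plasma, and the retinol reaches cells through the receptor STRA6. APOD is a carrier of arachidonic acid and progesterone made by fibroblasts and glia, among other cells. LCN2 binds iron-loaded siderophores and is a product of neutrophils and inflamed epithelia. PTGDS both makes prostaglandin D2 and carries lipophilic ligands, and is abundant in meninges and choroid plexus.

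Each value is a log2 ratio of treated over control RNA, so 0 means equal signal. The deposited columns were read as Cy5 over Cy3, and arrays with the control in Cy5 were multiplied by -1. If all columns ran the other way, every sign below would turn. For female pools the column order is less certain, and female means without the turn are therefore given as well. If the columns were read rightly, the unturned mean of both arrays holds what follows the dye, and not the treated over control ratio. Arrays held between 31722 and 39435 measured probes, 18481 probes were measured on all 24 arrays, and the SD of all ratios on an array was 0.620 to 0.890 in female and 0.937 to 1.33 in male pools, so sex goes together with array scale. Embryos hold many cell types, and fewer cells of a type and less RNA per cell cannot be told apart. A ratio also gives no level, so the markers of a tissue cannot show whether it is present.

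SAL1 was measured on all 24 arrays. In male IS21SE its deposited ratios with the treated RNA in Cy5 were 3.07, 2.64 and 1.28 in replicates 1, 2 and 3. With the control RNA in Cy5 they were -3.77, -2.59 and -1.65. Every array therefore pointed to more SAL1 signal in the treated pools once its dye order was taken into account. The replicate ratios were 3.42, 2.62 and 1.46, a mean of 2.50 ± 0.98 (SD, n = 3), or 5.66-fold. This ratio is what chose SAL1 and carries no test. Among the 9002 named probes measured on all arrays SAL1 had the highest mean in this group, and LGALS9 at 1.45, AHCTF1 at 1.40 and DPM2 at 1.33 came next. Leaving out 1 replicate gave a mean between 2.04 and 3.02. The treated-in-Cy5 arrays by themselves gave a mean of 2.33, and the turned control-in-Cy5 arrays one of 2.67.

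**Figure D1:**
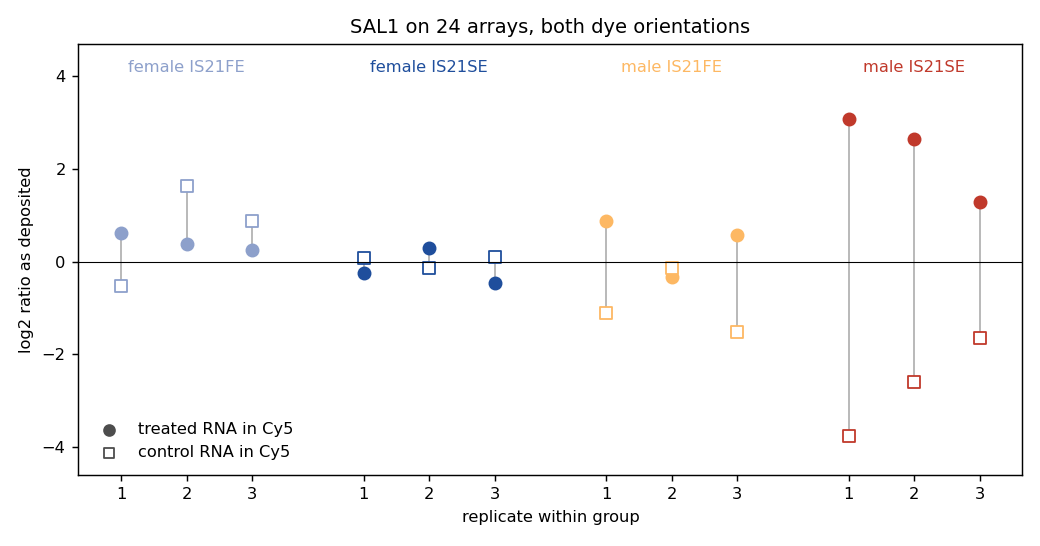
Log2 ratio of SAL1 as deposited (vertical axis) on each of the 24 arrays, by replicate and group, with filled circles for the treated RNA in Cy5 and open squares for the control RNA in Cy5, and a line joining the arrays of a replicate. In male IS21SE the circles lie at 1.28 to 3.07 and the squares at -3.77 to -1.65, while both squares and circles of female IS21FE replicates 2 and 3 lie above 0.

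In male IS21FE the SAL1 replicate ratios were 0.99, -0.11 and 1.04, a mean of 0.64 ± 0.65 (SD, n = 3). The deposited ratios were 0.88, -0.34 and 0.58 with the treated RNA in Cy5 and -1.1, -0.13 and -1.51 with the control in Cy5, so 5 of 6 arrays were positive after the turn. Replicates 1 and 3 lay well above 0 and replicate 2 just below it. The mean had a 95% interval of -0.18 to 1.47 and did not pass (limma, adjusted p = 0.768). Of the 18481 probes measured on all arrays 166 had a higher mean in this group.

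In female pools the SAL1 ratios lay on both sides of 0. The deposited ratios of female IS21FE were 0.63, 0.38 and 0.26 with the treated RNA in Cy5, and -0.53, 1.63 and 0.87 with the control in Cy5. Replicates 2 and 3 of that group thus had the same deposited sign in both orientations. In female IS21SE they were -0.24, 0.29 and -0.47, and 0.08, -0.13 and 0.11. The replicate ratios of female IS21FE were 0.58, -0.62 and -0.30, with a mean of -0.12 ± 0.62 (SD, n = 3) and a 95% interval of -0.94 to 0.71. Those of female IS21SE were -0.16, 0.21 and -0.29, with a mean of -0.079 ± 0.26 (SD, n = 3) and an interval of -0.91 to 0.75. Neither passed (limma, adjusted p = 0.978 and 1.0). The fit shares a single spread over the 4 groups. Every SAL1 interval and p-value given here therefore also draws on the spread of the male IS21SE ratios, which chose the gene. Without the turn the female IS21FE mean was 0.54 and the female IS21SE mean -0.059. The male means without the turn were -0.27 in IS21FE and -0.17 in IS21SE.

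The order of SAL1 means, from the highest, was male IS21SE, male IS21FE, female IS21SE and female IS21FE. The ranges of the last 3 groups overlap. The male IS21SE ratios chose the gene, so their place above the other groups is a description and was not tested. For IS21FE, male minus female was 0.76, with a 95% interval of -0.41 to 1.93 that includes 0 (limma, adjusted p = 0.876). For IS21SE, male minus female was 2.58, given without a test because the male IS21SE ratio chose the gene. Across the 12 replicates the dye difference of SAL1, (treated-in-Cy5 minus control-in-Cy5) / 2 after the turn, averaged 0.01 ± 0.41 and ranged from -0.47 to 1.01.

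**Figure D2:**
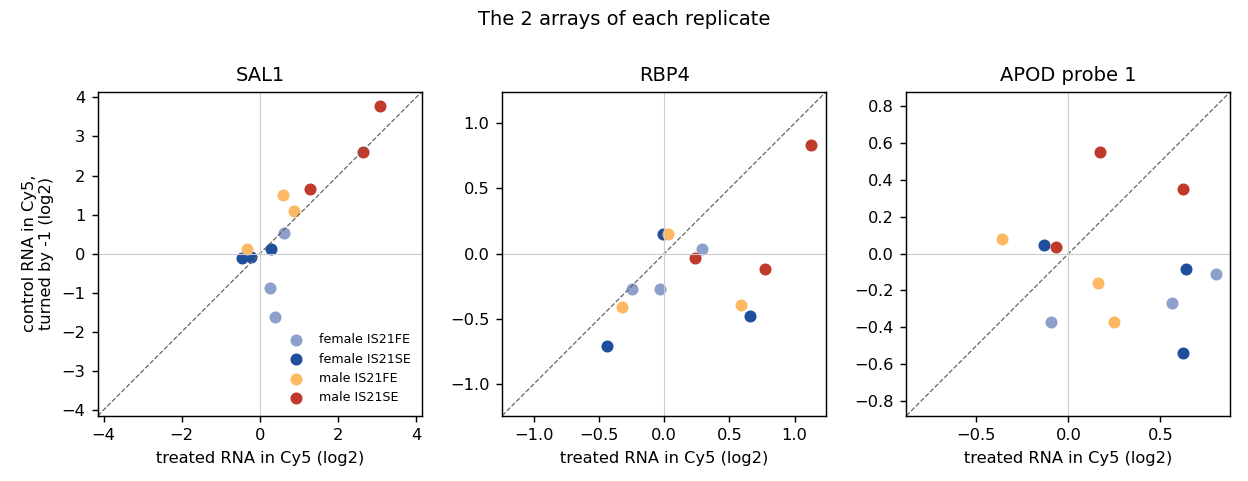
The arrays of each replicate for SAL1, RBP4 and APOD probe 1, with the log2 ratio of the treated-in-Cy5 array on the horizontal axis and that of the control-in-Cy5 array, multiplied by -1, on the vertical axis; the dashed line marks equal values, and each panel has its own scale. The male IS21SE replicates of SAL1 lie in the upper right, and all 3 probes have replicates in the lower right, where the orientations have opposite signs, for SAL1 female IS21FE replicates 2 (0.38 and -1.63) and 3 (0.26 and -0.87).

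RBP4, the retinol carrier, was measured on all 24 arrays and had its highest mean ratio in male IS21SE, where it did not pass. The male IS21SE deposited ratios were 1.13, 0.77 and 0.24 with the treated RNA in Cy5 and -0.83, 0.12 and 0.032 with the control in Cy5. The replicate ratios were 0.98, 0.32 and 0.10, a mean of 0.47 ± 0.46 (SD, n = 3) with a 95% interval of 0.020 to 0.92. All 3 replicates and 4 of 6 turned arrays were positive, with replicate 1 far above the other two. The interval is not adjusted for the number of probes, and the adjusted p was 0.431 (limma). Without replicate 1 the mean was 0.21, and without the turn it was 0.24.

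In the other groups RBP4 lay near 0. Replicate ratios were 0.16, -0.26 and -0.15 in female IS21FE, with a mean of -0.084 ± 0.22 (SD, n = 3). In female IS21SE they were 0.073, -0.58 and 0.087, with a mean of -0.14 ± 0.38. In male IS21FE they were 0.089, -0.37 and 0.10, with a mean of -0.059 ± 0.27. None passed (limma, adjusted p = 0.970, 1.0 and 0.990). Without the turn the female means were 0.085 in IS21FE and 0.21 in IS21SE, so their sign depends on the turn. The IS21SE male minus female difference was 0.61, with a 95% interval of -0.028 to 1.24 (limma, adjusted p = 0.738). The dye difference of RBP4 was positive in 10 of 12 pairs, with a mean of 0.17 ± 0.21 (limma, adjusted p = 0.118), where 9.04% of 33241 probes passed.

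APOD had 3 probes, which ran in different directions in male IS21SE. Probe 1, measured on all 24 arrays, had replicate ratios of 0.49, 0.36 and -0.015 in male IS21SE, with a mean of 0.28 ± 0.26 (SD, n = 3) and a 95% interval of -0.040 to 0.59. Probe 3, measured on 21 arrays, had 1.83, 0.47 and 0.13 there, a mean of 0.81 ± 0.90 and an interval of 0.039 to 1.58. Replicate 1 of probe 3 carries that mean, as its control-in-Cy5 array was -2.89, and without it the mean was 0.30. Probe 2, measured on 13 arrays, ran the other way, with -0.82 and -3.50 in the 2 male IS21SE replicates that had it. None of the 3 probes passed there (limma, adjusted p = 0.505, 0.429 and 0.430 for probes 1, 3 and 2). Averaged over its probes, APOD had a mean of -0.11 in male IS21SE.

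In the other groups probe 1 of APOD had means of 0.084 ± 0.29 (SD, n = 3) in female IS21FE, 0.093 ± 0.16 in female IS21SE and -0.068 ± 0.069 in male IS21FE. Probe 3 had 0.12 ± 0.22, 0.16 ± 0.51 and 0.15 ± 0.68 in those groups. Probe 2 had 0.41 ± 0.71 on 4 arrays, 0.89 ± 1.72 on 5 arrays and, over 2 replicates, -0.50 ± 0.99 on 2 arrays. None of these 9 means passed, and the lowest adjusted p over them was 0.959 (limma). For probe 2 the IS21SE male minus female difference was -3.05, with an unadjusted 95% interval of -5.71 to -0.40 (limma, adjusted p = 0.697). Without the turn the means in female IS21FE and female IS21SE were 0.34 and 0.29 for probe 1, 0.69 and 1.58 for probe 2, and 0.024 and 0.19 for probe 3. The dye difference of probe 1 was positive in 8 of 12 pairs, with a mean of 0.17 ± 0.26 (limma, adjusted p = 0.197). Over 12 replicates probes 1 and 3 correlated with r = 0.540, probes 1 and 2 with r = -0.486 over 10, and probes 2 and 3 with r = -0.0516 over 10. The probes were read on the same arrays, so these correlations are a description.

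LCN2, the siderophore carrier, was measured on 6 arrays, 3 female and 3 male, and never on both arrays of a replicate. As few or fewer arrays were measured for 1.99% of all probes. Its replicate ratios were 1.21 and -1.38 in female IS21FE, 0.16 in female IS21SE, 1.25 in male IS21FE, and 0.14 and -1.13 in male IS21SE. Each of the groups with 2 replicates held a positive and a negative value. Their means of -0.086 ± 1.83 and -0.50 ± 0.90 (SD, n = 2) did not pass (limma, adjusted p = 0.995 and 0.865). Without the turn the female IS21FE mean was 1.29 and the female IS21SE value -0.16, so both signs depend on the turn.

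**Figure D3:**
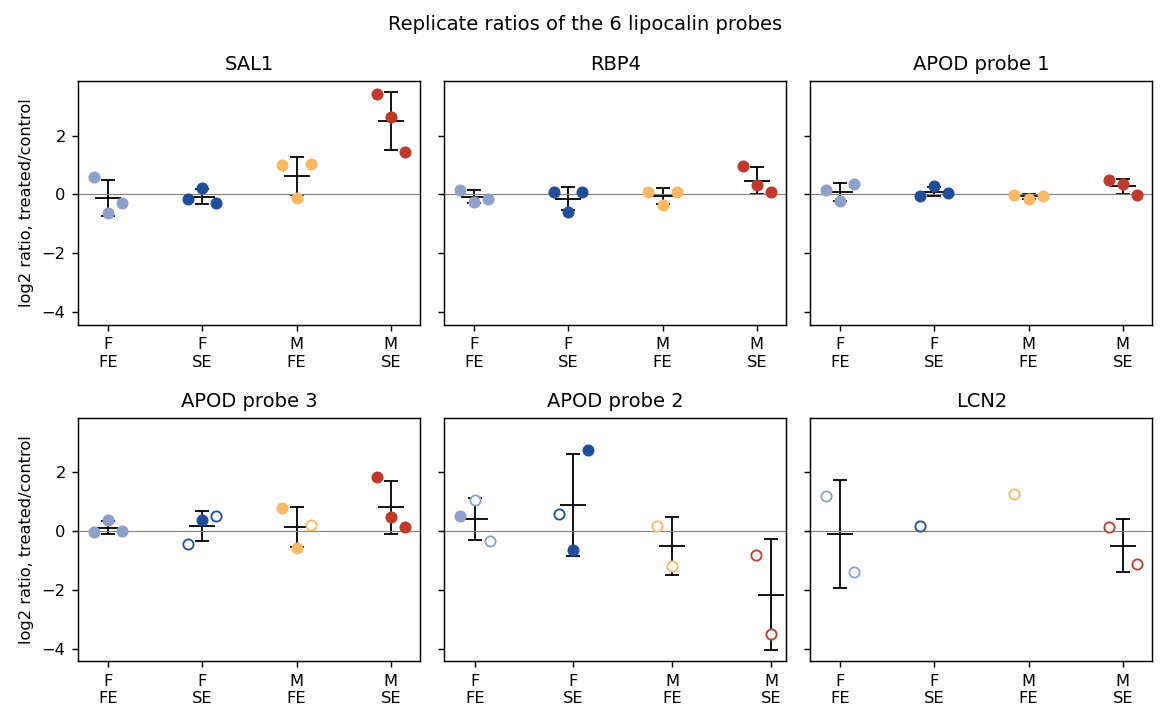
Replicate log2 ratios of the 6 member probes by sex and scheme, filled points for replicates with 2 arrays and open points for those with 1, and a black bar for the mean ± SD. SAL1 in male IS21SE, the group that chose it, lies at 1.46 to 3.42, and LCN2 and APOD probe 2 rest mostly on single arrays.

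No member ratio that was tested passed an adjusted p of 0.05 (limma); SAL1 was not tested in male IS21SE. Over all probes 0 of 42568 were called in female IS21FE (2921 at an unadjusted p under 0.05) and 0 of 42166 in female IS21SE (1766 unadjusted). The called share was 0.0% in each. In male IS21FE 7 of 40613 were called, 0.0172%, and in male IS21SE 1 of 41317, 0.00242%. The 3 contrasts between sexes or schemes had 0 calls (0.0%), with 2482, 2796 and 2142 probes at an unadjusted p under 0.05.

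Signs were also set beside the background of all probes. RBP4 and APOD probe 3 were positive in all 3 male IS21SE replicates, as were 16.7% of 36678 probes. On single arrays, APOD probe 3 was positive on all 6 turned male IS21SE arrays, as were 5.23% of 28278 probes. SAL1 was positive on them too, but these arrays chose it, so its signs are not set beside those shares. For RBP4 and APOD probes 1 and 3, replicate 1 was the highest and replicate 3 the lowest in male IS21SE, the order of 18.2% of probes. The SAL1 ratios had that order too, but they chose the gene and are not set beside that share. SAL1 and RBP4 replicate ratios correlated over the 12 replicates with r = 0.805 and rho = 0.769, and had the same sign in 9. SAL1 and APOD probe 1 gave r = 0.602, and SAL1 and APOD probe 3 r = 0.682. Over the 9 replicates outside male IS21SE, the group that chose SAL1, r was 0.407 with RBP4, 0.0853 with APOD probe 1 and 0.303 with APOD probe 3.

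**Figure D4:**
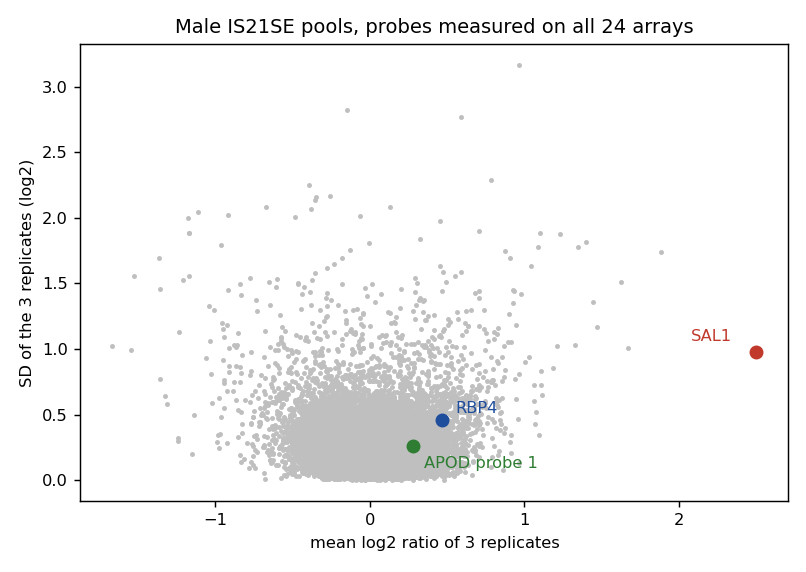
Mean male IS21SE ratio against SD over its 3 replicates for the 18481 probes measured on all arrays, with the member probes that have all arrays marked. SAL1 lies at the right edge, at 2.50 with an SD of 0.98, while RBP4 at 0.47 and APOD probe 1 at 0.28 lie within the cloud of all probes.

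The genes whose replicate ratios ran most like SAL1 over the 12 replicates were MMP2, a gelatinase (r = 0.974), VPS72 (r = 0.955), RNF41 (r = 0.925), ETHE1 (r = 0.916) and STK11 (r = 0.913), out of 14221 probes searched. Over the 9 replicates outside male IS21SE r was 0.909 for MMP2, 0.940 for VPS72, 0.729 for RNF41, 0.783 for ETHE1 and 0.677 for STK11. In male IS21SE their means were below the 2.5 of SAL1. The values there were 0.37 for MMP2, 0.46 for VPS72, 1.31 for RNF41, 0.31 for ETHE1 and 0.39 for STK11. For RBP4 the genes most alike were ND1 (r = 0.973), PTK2B (0.954), PHGDH (0.945), LOC100153886 (0.941) and MAN2B1 (0.941). For APOD probe 1 they were KLF3 (0.866), UNC119B (0.847), HSD17B12 (0.845), F13A1 (0.845) and RBBP7 (0.843). For LCN2, over only 6 replicates, they were NDUFA7, SSPN, ZMYND8, MST1 and RNF169, with r from 0.970 to 0.978. These are the highest values of a search over all those probes and come with no test.

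Other lipocalins had a probe for 10 of 13 listed genes, and none of their 11 probes passed in any group. Their median ratio was -0.23 in female IS21FE, 0.086 in female IS21SE, 0.11 in male IS21FE and 0.25 in male IS21SE, against all-probe medians of 0.0035, 0.0034, -0.0067 and -0.016. In male IS21SE 6 of the 10 probes tested were positive and 4 negative, where 47.9% of all probes tested were positive. LCN10 had a mean of 3.79 ± 1.46 there (SD, n = 2), on 2 arrays with the treated RNA in Cy5 (limma, adjusted p = 0.191). LCN6 had a mean of 1.26 ± 0.40 in male IS21FE, on 3 arrays, and -1.08 ± 0.84 in male IS21SE. LCN15 had probes at -1.34 ± 1.67 and -0.34 ± 1.54 in male IS21SE. ORM1, an acute-phase carrier of liver, was at 0.50 ± 0.22 in male IS21SE (adjusted p = 0.393), and APOM, a carrier of sphingosine-1-phosphate, at 0.41 ± 0.017. LCN10 was at -0.24 ± 0.10, -0.70 ± 0.39 and 0.62 ± 1.65 in female IS21FE, female IS21SE and male IS21FE, and APOM at 0.23 ± 0.26, 0.14 ± 0.40 and 0.26 ± 0.45.

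RBP4 is made mainly by liver, and 9 liver marker genes were measured with 13 probes. Their probes had positive means in 12, 11, 12 and 12 of 13 in female IS21FE, female IS21SE, male IS21FE and male IS21SE. None passed. Of all probes tested in those groups 50.5%, 50.6%, 48.8% and 47.9% were positive. The median of the markers was 0.59, 0.12 and -0.0084 in the female IS21FE replicates, and 0.54, -0.39 and 0.32 in those of female IS21SE. It was 0.80, -0.23 and 0.14 in male IS21FE, and 0.68, 0.22 and 0.30 in male IS21SE. RBP4 was below that median in 10 of 12 replicates and had the same sign in 11. Over the 12 replicates r was 0.743 and rho 0.685, and over the 9 outside male IS21SE r was 0.864, a description of values that share arrays. In male IS21SE APOA1 was at 0.56 ± 0.080, PLG at 0.50 ± 0.25 and ALB at -0.51 ± 0.82 (SD, n = 3). Their part in the RBP4 ratio was not tested.

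**Figure D5:**
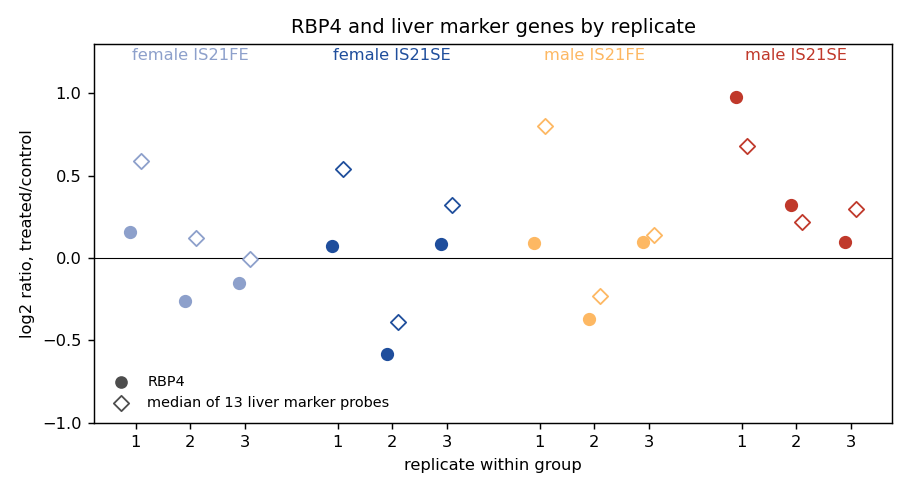
Log2 ratio of RBP4 (filled circles) in each replicate beside the median of 13 liver marker probes in that replicate (open diamonds). The marker median is highest in replicate 1 of each group, and RBP4 lies below the marker median in 10 of 12 replicates.

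No probe of the pathway lists passed in any group. Of the retinol list 16 of 24 genes had a probe, and 8 of 16 were positive in male IS21SE, against 47.9% of all probes tested. STRA6, the RBP4 receptor, was at -0.15 ± 0.071 in male IS21SE and 0.55 ± 1.01 in female IS21FE. RXRA, a retinoid nuclear receptor, was at 1.1 ± 0.34 in male IS21SE (limma, adjusted p = 0.404) and 0.63 ± 1.02, 0.33 ± 0.39 and 0.47 ± 1.15 in female IS21FE, female IS21SE and male IS21FE, and in female IS21SE CRABP2, a retinoic acid binding protein, was at -0.33 ± 0.19 and ALDH1A3, which makes retinoic acid, at -0.43 ± 0.49. TTR, which carries RBP4 in plasma, and CRABP1, LRP2 and BSG were not among the named probes.

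Of the prostaglandin list 15 of 23 genes had a probe. PTGDR, a receptor for prostaglandin D2, was at -0.70 ± 0.65 in male IS21SE (SD, n = 3) and did not pass (limma, adjusted p = 0.677). HPGDS, the other prostaglandin D synthase, was at 0.17 ± 0.64 there on 2 replicates. PTGS2, a cyclo-oxygenase, was at -0.10 ± 0.13. PTGES2 is a prostaglandin E synthase whose gene is next to LCN2 in the Sscrofa11.1 gene order. In female IS21SE it had a probe at -0.62 ± 0.66 (adjusted p = 1.0) and another measured in 1 replicate, at -0.17. In female IS21FE the same probes were at 0.60 ± 0.33 (limma, adjusted p = 0.669) and -0.22 ± 0.76. PTGFR, the prostaglandin F receptor, was at -0.93 ± 0.95 in female IS21SE. PTGS1, the other cyclo-oxygenase, had probes at 0.44 ± 0.16 and 0.83 ± 0.33 in female IS21FE.

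Of the iron and LCN2 partner list 11 of 18 genes had a probe. In male IS21SE 11 of 16 probes were positive, against 47.9% of all probes tested. The replicate medians of the list there were 0.14, -0.016 and -0.051. SLC22A17, a receptor reported for LCN2, had 2 probes at 0.30 ± 0.097 and 0.069 ± 0.076 there (SD, n = 3), neither past the test. MMP9, which forms a complex with LCN2, was at 1.08 ± 0.74 in male IS21FE (limma, adjusted p = 0.370) and 0.18 ± 0.16 in male IS21SE. TFRC, the transferrin receptor, was at 0.44 ± 0.46 in female IS21SE. CP, the ferroxidase of plasma, had a probe at -0.48 ± 0.33 in male IS21SE (adjusted p = 0.297) and another at -1.99 ± 2.59 on 3 arrays. In male IS21FE the same probes were at -0.26 ± 0.13 and -2.60 ± 1.53. Neutrophil and leucocyte markers had a median of 0.12 in male IS21SE, with 6 of 8 probes positive. Their replicate medians there were -0.32, -0.19 and 1.07, so the direction rests on replicate 3.

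Of the salivary and nasal gland list 8 of 14 genes had a probe. In male IS21SE 4 of 7 probes tested were positive, against 47.9% of all probes tested, with a median of 0.26. LPO, the salivary peroxidase, was at 0.99 ± 0.87 there (limma, adjusted p = 0.307), and at 0.88 ± 0.12 in female IS21FE, 0.80 ± 0.42 in female IS21SE and 0.70 ± 0.14 in male IS21FE. ODAM was at 1.36 ± 1.38 in male IS21SE (adjusted p = 0.415), and at -0.91 ± 0.68, 0.45 ± 0.45 and 0.058 ± 1.19 in the other groups in that order. BPIFA1, a secreted airway protein, had 3 probes of unlike sign in female IS21SE, at -0.45 ± 0.58, 0.33 ± 0.75 and 0.19 ± 0.048. OBP, a nasal odorant carrier of the pig, was measured in 1 male IS21SE replicate, at -1.74. Mesenchyme markers, given because fibroblasts make APOD, had a median of -0.16 in male IS21SE, with 10 of 13 probes negative. That left 23.1% positive, against 47.9% of all probes tested there. The 13 probes are of 7 genes, so a gene can count several times. The lean was not particular to male IS21SE. Of these probes 11, 11 and 8 were negative in female IS21FE, female IS21SE and male IS21FE, with medians of -0.19, -0.13 and -0.033. In male IS21SE meninges and choroid plexus markers had a median of 0.072 and trophoblast and endometrium markers one of 0.0018. Their part in the member ratios was not tested.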

How the data were processed

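The members and the gene lists were chosen with earlier results of these data known. The deposited table of the authors holds log2 ratios of the 2 channels, taken as log2 from their range of -9.34 to 9.85. How the authors normalized the values, which log they took and which channel is the numerator is not given in the sources used here. Per the labels' protocols 200 ng of RNA was labelled with a low input kit. Probes took gene symbols from the platform annotation, updated by accession (116 probes) or synonym (224); 18109 probes have 1 symbol and 25640 none.

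Arrays with the control in Cy5 were multiplied by -1, and a replicate is the mean of whichever of its arrays measured the probe. Each probe was fitted with limma 3.58.1 in R 4.3.3 as 4 group means over 12 replicates, with eBayes and Benjamini-Hochberg adjustment over all probes that had 2 or more replicates per group. The p-values measure the spread between these pools only. The threshold was an adjusted p of 0.05. Intervals are 95%. The fit was tested on simulated data. Dim spots could not be filtered, as the values are ratios. Named genes are every member probe, the 3 genes of each of the lipocalin, retinol, prostaglandin, iron and salivary lists with the smallest p in any comparison with control, a set of known partners, and 5 genes most like each member by Pearson's r. PLG, APOA1, ALB, APOM, OBP, LCN15, LCN6 in male IS21SE, PTGES2 in female IS21FE and the genes ranked next to SAL1 were added after their values were seen. Alternatives were the dye turn, single orientations, filters, scaling, array weights, fits by sex, single arrays, gene means, the replicate block and leaving out replicates.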

Additional observations from a re-analysis of the deposited data

How the results depend on the processing

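Member ratios other than SAL1 in male IS21SE were recomputed under the alternatives, giving 500 values for 21 results. Of these values, 481 moved by less than 1 SD, 35 had the opposite sign, none passed the threshold, and the lowest adjusted p was 0.118 (limma). Leaving out a replicate of another group or fitting the sexes apart cannot move a group mean. The count within 1 SD is therefore no measure of stability. SAL1 in male IS21SE had a mean of -0.17 without the turn of the control-in-Cy5 arrays. As the columns were read here, the unturned mean of both arrays of a replicate equals its dye difference. The ratio of treated to control cancels in it, so under that reading it is no second estimate of that ratio. Calls over all probes depended on the turn: without it they were 1134 in female IS21FE, 173 in female IS21SE, 39 in male IS21FE, 50 in male IS21SE and 32 for IS21SE male minus female, against 0, 0, 7, 1 and 0. Female IS21FE had 1 call with array weights and 1 with single arrays and a dye term. With control-in-Cy5 arrays alone female IS21SE had 2 calls, IS21SE male minus female 1, male IS21FE 3 and male IS21SE 0, and with treated-in-Cy5 arrays alone male IS21FE had 3 and male IS21SE 21. Male IS21FE had 0 calls with both arrays required, sexes fitted apart or single arrays, 1 with 3 of 3 replicates or with gene means, 12 with 1 replicate enough, 4 with centred arrays and 3 with array weights. Male IS21SE had 0 calls with both arrays required, sexes fitted apart or gene means, and 7 with single arrays. Dye difference calls were 3005, with 1843 in female pairs only and 8 in male pairs only. Leaving out 1 replicate gave 0 to 62 calls in male IS21FE: 0 or 1 without any female replicate, 3 without male IS21SE replicate 1, 4 without male IS21SE replicate 2 or male IS21FE replicate 3, and 62 without male IS21FE replicate 1. In male IS21SE it gave 0 to 10: 0 without replicate 1 or 2 of female IS21FE or 1 or 3 of female IS21SE, 8 without male IS21FE replicate 2, and 2, 10 and 9 without replicates 1, 2 and 3 of male IS21SE. IS21FE male minus female had 0 to 5, with 5 without male IS21FE replicate 1 and 1 without male IS21SE replicate 3, and the scheme difference 0 to 1, with 1 without male IS21FE replicate 2. The causes were not tested. The labels do not say that replicate numbers pair pools, and same-numbered deviations correlated between -0.151 and 0.126, so the replicate block is given here only: male IS21FE had 0 calls and male IS21SE 1, and no member passed. The number of arrays, and 6 arrays for LCN2, limits the precision. The correlations of SAL1 outside male IS21SE were added after seeing the data.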
